A study of Mus musculus with 8 samples.

Results

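Transcript levels were compared between mouse embryonic stem (ES) cells that carried a short hairpin RNA against Jmjd2b and ES cells that carried a control hairpin against GFP. The comparison used 6 of the 8 arrays of the series, 3 for each hairpin. The 2 arrays of cells with a hairpin against Jmjd2c took no part in it. All cells were ESC of male origin and of the agouti strain 129S4/Svjae, and both groups were kept in ES cell medium with leukemia inhibitory factor (LIF). Both groups were infected with lentivirus that delivered the hairpin, selected with puromycin and passaged before RNA was taken. The hairpin was thus the only stated difference between the groups. The labels give no hairpin sequence, do not say whether more than 1 hairpin was used against Jmjd2b, and do not say whether the cells were a pool or a clone. Of 45101 probe sets on the array, the 34945 that are listed with exactly 1 gene symbol were tested, and they represent 18193 genes. Each gene is described by its brightest probe set over the 6 arrays.

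Jmjd2b, which the array lists as Kdm4b, is a histone demethylase with a JmjC domain. It removes methyl groups from lysines of histone H3 that mark silent chromatin and the bodies of transcribed genes. ES cells kept in LIF resemble the naive epiblast of the blastocyst and hold themselves there through a network of transcription factors that includes Klf4, Esrrb, Tbx3 and Nanog. When this network weakens they can pass into a primed state like that of the implanted epiblast, in which Fgf5 and de novo DNA methyltransferases are read and the cells respond to FGF, Nodal and Wnt signals.

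Array medians of the deposited linear intensities lay between 44.8 and 46.6. Folds are on the scale of log2(intensity + 16), which understates the change of dim genes, and intensities of different genes cannot be set against each other. Across probe sets the log2 values of a pair of arrays correlated at 0.990 to 0.994 within a group and at 0.960 to 0.977 between groups. The 3' to 5' ratio of actin, which rises with RNA degradation, was 1.63, 1.45 and 1.56 in the controls and lower in each knockdown array, at 1.42, 1.36 and 1.31. The part of RNA quality in the results was not tested. Control arrays 1 and 2 and knockdown array 2 listed 412, 439 and 455 probe sets at exactly 1, and the other 3 arrays 7 to 11. The reason is not stated. This difference did not fully separate the groups, but it was unevenly spread, over 2 controls and 1 knockdown array. Control arrays 1 and 2 and knockdown array 2 share more identical values with each other (0.412% to 0.428%) than with the rest. This excess lies in the values at 1: without them these pairs share 0.0333% to 0.0399%, no more than some pairs with other arrays. Control array 3 also shares more with knockdown array 1 (0.459%), and knockdown array 3 with the 2 Jmjd2c arrays (0.599% and 0.601%). Without the values at 1 these pairs still share 0.448%, 0.588% and 0.590%. Pairs across these array sets share at most 0.0798%. Nothing in the labels says that replicates came from separate infections or cultures. The p-values therefore rest on the spread between these arrays alone, and that spread may be technical.

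The targeted transcript was low in every knockdown array. Kdm4b (chromosome 17) had intensities of 421, 339 and 643 in control arrays 1 to 3 and 50.3, 29.3 and 17.02 in knockdown arrays 1 to 3. All knockdown arrays lay far below all controls, and knockdown array 3 was the lowest. The knockdown arrays stood at 10.8%, 6.27% and 3.64% of the control mean, and the log2 change was -3.34 ± 0.27 (SE, n = 3 arrays per group; limma with Benjamini-Hochberg adjustment, adjusted p = 3.48e-05). Where values of both groups follow, those of the controls come first.

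Of the 4 measured demethylases of the KDM4 family, 3 fell, against 15.9% of all genes. Kdm4a, which acts on the same histone marks, had 953, 1046 and 1128 in the controls and 608, 625 and 542 in the knockdown. Kdm4c, the target of the hairpin left out here, had 1332, 1300.1 and 1210.0 in the controls and 752, 800.0 and 650.5 in the knockdown. In both genes the groups did not overlap and the arrays of a group were close. The log2 change was -0.80 ± 0.10 for Kdm4a and -0.79 ± 0.10 for Kdm4c (SE; limma, adjusted p = 0.000313 and 0.000303). The Kdm4a call was lost with the mean of its probe sets (log2 change -0.39) and the Kdm4c call with all 8 arrays in the fit (adjusted p = 0.105). Whether the hairpin acts on these transcripts directly was not tested. Kdm4d had 25.5, 16.4 and 14.5 in the controls and 17.8, 10.5 and 15.4 in the knockdown, near the dim end of the array and with overlapping groups (adjusted p = 0.466).

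**Figure D1:**
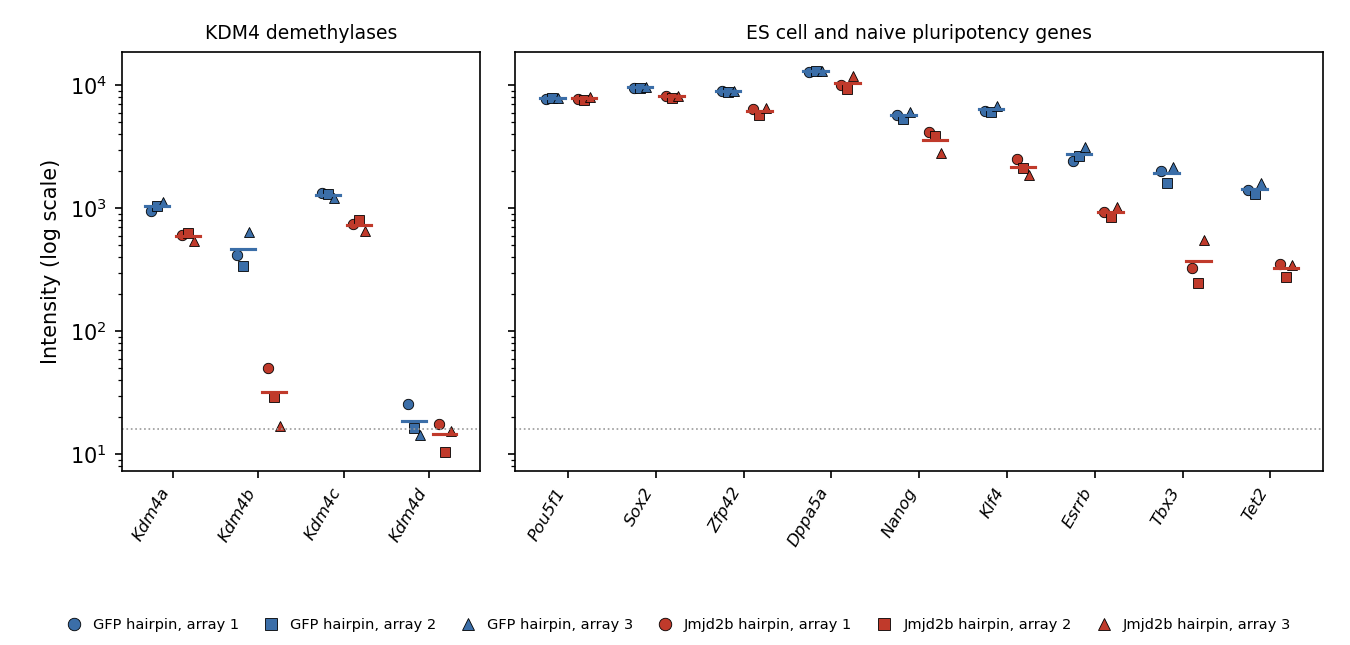
Intensity (log axis) of the KDM4 genes and of ES cell and naive pluripotency genes in each of the 6 arrays; circles, squares and triangles are arrays 1, 2 and 3, blue the GFP hairpin and red the Jmjd2b hairpin, short lines are group means and the dotted line is the pseudocount of 16. Kdm4b falls from a mean of 468 to 32.2, Pou5f1 stays at 7829 and 7821, and Klf4, Esrrb, Tbx3 and Tet2 separate without overlap.

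The transcriptome moved broadly. Of the 34945 probe sets, 9202 (26.3%) passed the test at an adjusted p of 0.05, with 4738 (13.6%) higher and 4464 (12.8%) lower in the knockdown. Of the 18193 genes, 5480 (30.1%) passed, 2587 (14.2%) higher and 2893 (15.9%) lower. In 3823 genes (21.0%) all 3 knockdown arrays lay above all 3 controls, and in 4340 (23.9%) they all lay below. Most changes were small: the median log2 change was 0.62 among genes that rose and -0.61 among genes that fell. Strong changes were more often rises. At least 4-fold changes were found in 156 rises and 73 falls, and at least 8-fold changes in 56 rises and 5 falls. The share of genes that passed differed with brightness: 5.95% of the genes under the median level of 104 rose and 7.90% fell, against 22.5% and 23.9% of the genes over it. Without control array 3 the number of genes that fell was 1913 and of probe sets that fell 2846. Within the arrays with many values at 1 (2 controls, 1 knockdown) 467 genes passed, and within the other type (1 control, 2 knockdown) 2104. Of 3258 called genes with more than 1 probe set, 1671 had another probe set called the same way and 109 one called the opposite way.

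**Figure D2:**
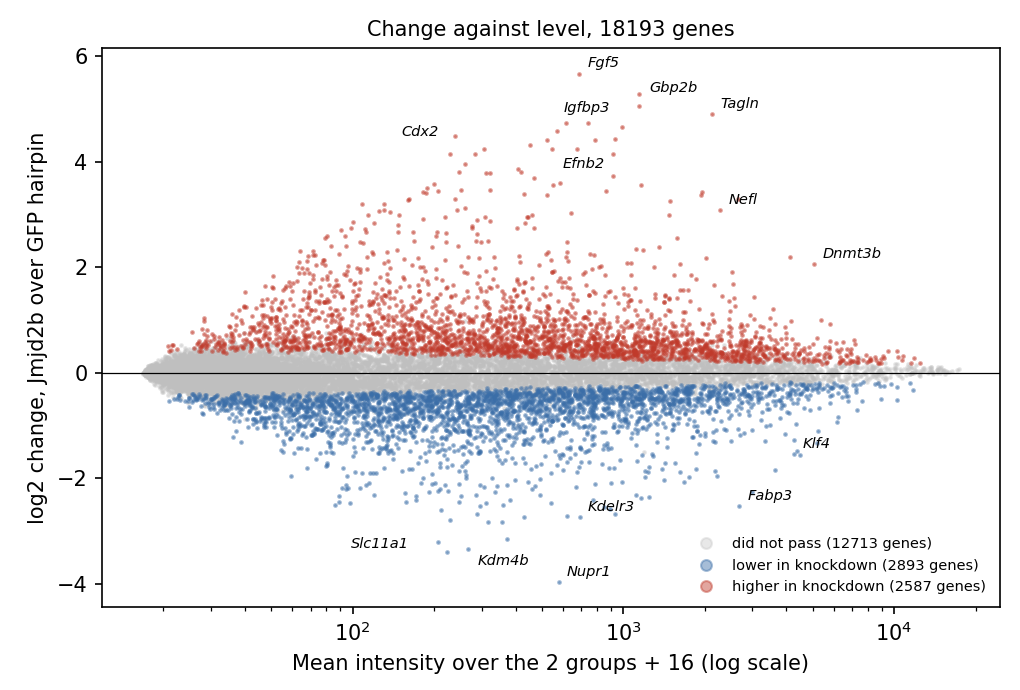
Log2 change (Jmjd2b hairpin over GFP hairpin, y axis) against mean intensity plus 16 (log axis) for each of the 18193 genes, red for the 2587 that were higher, blue for the 2893 that were lower and grey for the rest. The largest rise is that of Fgf5 at 5.67 and the largest fall that of Nupr1 at -3.97, and rises reach farther than falls.

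A few genes went from the dim end of the array to a clear level. Exactly 10 genes were under 16 on every control array and over 100 on every knockdown array, and 0 genes did the reverse. They were chosen by these values and are listed as a description: the transcription factors Cdx2, Sp8, Nkx1-2 and Wt1, the growth factor Fgf8, the fatty acid binding protein Fabp7, the lymphocyte inhibitory receptor Btla, the protocadherin Pcdh18, the sialyltransferase St6gal2 and Lzts1. Cdx2, a homeobox factor of trophectoderm and tail bud, had 5.63, 5.94 and 1.14 in the controls and 331, 532 and 464 in the knockdown. Sp8, a zinc finger factor of limb and tail buds, had 8.33, 10.7 and 9.14 against 162, 205 and 193. In both genes the groups were far apart and the 3 knockdown arrays were alike.

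The cells of both groups carried the transcripts that define ES cells. Pou5f1 (Oct4) had 7784, 7870.1 and 7832 in the controls and 7784, 7639 and 8038 in the knockdown, Dppa4 2287, 2551 and 2443 against 2321, 2343 and 2727, and Utf1 1764, 2285 and 1879 against 1595, 1959.6 and 2493. The groups overlapped in all 3 genes (adjusted p = 0.985, 0.901 and 0.961). Zfp42 (Rex1), which marks the naive state, had 9043, 8893 and 9011 in the controls and 6365, 5741 and 6477 in the knockdown and fell by 0.54 on the log2 scale. Of 12 ES cell markers 3 rose and 5 fell, and the risers were Lin28a, Sall4 and Fut4. Beside Zfp42 the falls included Sox2 and Dppa5a, with log2 changes of -0.25 and -0.33. Both calls were lost in eBayes without a trend (limma, adjusted p = 0.0933 and 0.0719). The Sall4 call was lost with the array set as a block, in eBayes without a trend and without knockdown array 2 or 3 or control array 1 or 3 (limma, adjusted p from 0.0574 to 0.102), and the falls numbered 3 in eBayes without a trend. Summed over the 12 markers, intensities lay between 66835 and 68846 in the controls and between 57634 and 61904 in the knockdown. These are bulk samples, so fewer cells with a transcript and less of it per cell cannot be told apart.

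Naive genes fell and primed genes rose. Of 20 naive pluripotency genes 18 fell and 1 rose, with a median log2 change of -0.66. Among 15 primed epiblast genes, 14 rose and 0 fell (limma, 0 lower also at an unadjusted p of 0.05), with a median of 1.51. Over all genes the median was -0.03. These and the other lists were chosen with earlier results of these data known, so their counts are a description. Many lists hold mainly genes over the median level, of which 22.5% rose and 23.9% fell. Counts near these shares say little about a list. Tbx3, a T-box factor of the naive network, had 1999.8, 1613 and 2154 in the controls and 329.7, 246 and 551 in the knockdown, and knockdown array 3 kept the most. Tfcp2l1, a factor downstream of LIF, had 3275, 4017 and 3829 against 2168, 2171 and 1961. Both fell, with log2 changes of -2.37 and -0.81 (limma, adjusted p = 9.74e-05 and 0.000156). Among primed genes Pou3f1 (Oct6), a POU factor of the epiblast, had 249, 390.4 and 231 against 1809.6, 2979.5 and 5951, a log2 change of 3.42 ± 0.35 (SE), and was highest in knockdown array 3. Sfrp2, a secreted Wnt-binding protein, had 107, 181 and 148 against 385, 501 and 529.5, with no overlap and a change of 1.61 ± 0.18. The 2 lists moved alike in each knockdown array: the naive median lay between -0.58 and -0.79 and the primed median between 1.19 and 1.79.

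Enzymes of DNA methylation moved in opposite directions. Of 17 genes in this group 6 rose and 8 fell. The de novo methyltransferase Dnmt3b had 1422, 2645 and 1793 in the controls and 5838, 8129 and 10429 in the knockdown, and its partner Dnmt3a 342, 496 and 332 against 792, 1206 and 1468. Both were higher in each knockdown array than in any control, with changes of 2.06 ± 0.23 and 1.51 ± 0.22. The oxidases that start demethylation fell: Tet2 had 1402, 1306 and 1615 against 355, 276 and 349, and Tet1 3448, 4415 and 4369 against 2560.2, 2490.1 and 2966. Their changes were -2.09 ± 0.12 and -0.60 ± 0.11 (SE; limma, adjusted p = 9.63e-06 and 0.00237). Gadd45a, which rose by 0.84, and the cytidine deaminase Apobec1, which fell by 0.94, are further genes tied to demethylation and DNA damage. Without knockdown array 2 only 3 genes of the group passed as rises.

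Other histone demethylases changed by less than Kdm4b. Of 25 JmjC and LSD genes outside the KDM4 family 7 rose and 4 fell (median 0.13). Kdm8, a JmjC enzyme that acts as a protein hydroxylase, had 65.9, 64.1 and 49.7 in the controls and 129, 129.7 and 128 in the knockdown, and Kdm2b, which brings a variant Polycomb complex to CpG islands, 1267, 1279 and 1162 against 1713, 1927 and 2006. Kdm3b, another demethylase of silent chromatin, had 1528, 1648 and 1809 against 1268, 1149 and 1105, and Kdm1a (LSD1) 5384, 5383 and 5880.4 against 4688, 4099.6 and 4370.0. The 4 genes changed by 0.94, 0.60, -0.49 and -0.34. Without control array 3 the counts were 4 rises and 2 falls. Among 20 methyltransferases and readers of the marks that KDM4 enzymes remove, 3 (15%) rose and 5 (25%) fell. Of all genes 14.2% rose and 15.9% fell, and of genes over the median level 22.5% and 23.9%. A group mean lay over that level in 19 of the 20 genes, so the share of falls was near that of bright genes. Smyd2, a lysine methyltransferase, rose by 1.06. Zfp57, which protects imprinted regions, fell by 0.75, and the methyltransferases Ehmt1 (GLP) and Ehmt2 (G9a), which act as a pair, had changes of 0.47 and -0.50. The Ehmt2 call was lost with all 8 arrays in the fit (adjusted p = 0.0772) and with the mean of its probe sets (adjusted p = 0.0533). The count of falls was 3 without control array 3, and that of rises 5 without knockdown array 3.

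Components of other chromatin complexes went both ways. Of 29 Polycomb genes 4 (13.8%) rose and 5 (17.2%) fell, shares near the 14.2% and 15.9% of all genes. Bmi1, a core subunit of Polycomb repressive complex 1, had 90.8, 74.7 and 58.1 in the controls and 226, 263 and 335 in the knockdown. Phc2, a further subunit of that complex, had 257, 259 and 245 against 655, 767 and 649. Both rose, by 1.68 and 1.39, while Ezh1 and Ezh2, the methyltransferases of complex 2, changed by -1.10 and -0.46. Of 31 COMPASS and BAF subunits 7 (22.6%) rose and 9 (29.0%) fell, or 5 with the mean of the probe sets per gene. A group mean lay over the median level in 28 of them, and of genes over it 22.5% rose and 23.9% fell. Smarcd3 (BAF60c), a BAF subunit of heart and muscle, had 657, 384 and 592 against 110.3, 94.2 and 88.4, a change of -2.27 ± 0.18 (SE; limma, adjusted p = 3.29e-05). Smarcd2 fell by 0.87, Wdr5, a scaffold of the COMPASS methyltransferases, fell by 0.65, and Arid2 rose by 0.77.

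LIF signalling genes changed in both directions. LIF acts through the receptor subunits Lifr and Il6st, the kinase Jak1 and the factor Stat3. Of 22 genes of the pathway 6 (27.3%) rose and 10 (45.5%) fell, or 3 and 6 with all 8 arrays in the fit, and the median was -0.34. Among genes over the median level 22.5% rose and 23.9% fell. Lifr had 1890.1, 2492 and 2373 in the controls and 1218, 1208 and 1175 in the knockdown. Socs3, a feedback inhibitor that Stat3 induces, had 4074, 4504 and 4831 against 2341, 2089.5 and 2209.9. Both were lower in each knockdown array, with changes of -0.89 ± 0.10 and -1.01 ± 0.08. The kinase gene Pim2 went the other way, from 211, 336 and 236 to 1804, 2662 and 3580.0, a change of 3.25 ± 0.23, while its relative Pim3 fell by 0.59.

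FGF ligands changed identity. Fgf4, the ligand that ES cells make for themselves, had 1650.5, 1844 and 2062 in the controls and 451, 344 and 782 in the knockdown. Fgf5, the classical marker of primed epiblast, had 3.57, 17.4 and 6.77 against 729.5, 1342 and 1919, and Fgf8, a ligand of the primitive streak and tail, 10.1, 6.40 and 6 against 397, 597 and 263. Fgf4 was thus lower in all knockdown arrays, and the other two ligands went from the dim end of the array to a clear level. The changes were -1.86 ± 0.24, 5.67 ± 0.31 and 4.14 ± 0.24 (SE; limma, adjusted p = 0.000373, 7.27e-06 and 9.81e-06). Fgfbp1, a carrier that frees FGFs from the matrix, rose by 3.46, the intracellular homologue Fgf13 by 2.50 and the receptor Fgfr1 by 1.24. Of 22 ligands, receptors and carriers 6 rose and 3 fell, or 1 without control array 3. Genes that answer to ERK, the kinase downstream of FGF receptors, more often rose: 12 of 23 rose and 3 fell, with a median of 0.44. The phosphatase Dusp4 had 79.5, 79.1 and 65.2 against 256, 329 and 313, Spred1, an inhibitor of Ras signalling, 429, 584 and 402 against 988, 1351 and 1188, and Il17rd (Sef), an inhibitor of FGF receptors, 193, 419.8 and 286 against 1014, 1316 and 1025. All 3 feedback genes were higher in each knockdown array, by 1.79, 1.30 and 1.90. Phlda1 rose by 1.44 and Myc by 1.36. Without control array 1 the count of falls was 5.

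Wnt signalling genes more often rose than fell. Of 40 ligands, receptors and secreted inhibitors 17 rose and 4 fell, with a median of 0.38. Wls, the carrier that takes Wnt proteins to the cell surface, had 29.02, 34.3 and 36.2 in the controls and 291, 338 and 493 in the knockdown. Wnt3, a ligand of the posterior epiblast, had 8.03, 6.20 and 1.57 against 86.5, 117 and 68.5, and Wnt4 19.4, 26.02 and 27.98 against 146, 154 and 211. In these genes no knockdown array came near a control, and the changes were 2.96 ± 0.18, 2.31 ± 0.19 and 2.19 ± 0.16. Among receptors Fzd6 rose by 1.77 and the kinase-like receptor Ror1 by 1.46, while Fzd5 fell from 1866, 2168 and 2118 to 894, 953 and 1019. Another probe set of Ror1 was called the opposite way. Of 21 genes of the nuclear part of the pathway 10 rose and 1 fell (median 0.40). This list counts targets of beta-catenin together with TCF factors such as Tcf7l1 and Tcf7l2. The call of the fall was lost without knockdown array 1 or 2 or control array 1 or 3. Sp5, a zinc finger factor that is among the most direct of these targets, had 23.2, 54.5 and 36.9 against 1177, 1767 and 1295, and the receptor Tnfrsf19 (Troy) 90.9, 62.2 and 35.6 against 450.5, 658 and 536. Their changes were 4.74 ± 0.21 and 2.88 ± 0.24 (SE; limma, adjusted p = 5.21e-06 and 3.77e-05).

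Promoters were read from RefSeq on build GRCm38.p6, as windows from 250 bases before to 50 bases after the start, and searched on both strands. Of the list of Wnt targets and TCF factors 15 genes had such a window, and 3 of 23 windows (13.04%) held the TCF core CTTTGAT. This compares with 3.73% of all windows, 2.18% of those of all genes that rose and 2.98% of those of all genes that fell. The 2 that belong to strongly rising genes are shown on the strand of the gene, 5′ to 3′, with the core or its reverse complement in capitals. A match describes the letters of a window and is not evidence of binding. Here and below, lists were put together around known pathways and their targets. A higher share of a motif in a list thus follows in part from that choice.
Sp5 (chr2:70474797-70474856, + strand): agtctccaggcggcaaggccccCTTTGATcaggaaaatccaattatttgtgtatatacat
Tnfrsf19 (chr14:61038152-61038211, - strand): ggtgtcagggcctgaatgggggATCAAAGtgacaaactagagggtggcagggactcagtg

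Nodal and activin genes changed in ligands and inhibitors. Of 24 genes 10 rose, or 6 without knockdown array 2 or with the array set as a block, and 3 fell. Nodal, the ligand that keeps epiblast and patterns the streak, had 608, 873 and 723 in the controls and 1677, 1962 and 1415 in the knockdown. Inhbb, a subunit of activin B, had 1536, 1432 and 1532 against 207, 161 and 389, and follistatin (Fst), which captures activin, 79.2, 69.5 and 34.4 against 1652, 2826 and 835. Nodal and Fst were higher in all knockdown arrays and Inhbb lower, by 1.18 ± 0.15, 4.42 ± 0.38 and -2.59 ± 0.24 on the log2 scale. Foxh1, the forkhead partner of Smad proteins, rose by 1.07 and Gdf3, a related ligand, by 0.59. Of 28 BMP pathway genes 13 rose and 3 fell; the rises numbered 8 without knockdown array 2 and 7 with all 8 arrays in the fit. Bmp4 had 675, 532 and 599 against 327, 298 and 289, whereas 3 genes that BMP signals induce rose. Id3 had 305, 379 and 449.7 against 1268, 1159 and 977, Id1 636, 934 and 1012 against 1419.5, 1429.6 and 1894, and the homeobox gene Msx1 11.9, 16.8 and 9.68 against 177, 230.2 and 124. Bmp4 fell by 0.94, a call lost with all 8 arrays in the fit (adjusted p = 0.0612), and the others rose by 1.56, 0.88 and 2.72.

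Notch, ephrin and insulin-like growth factor (IGF) genes had single strong members. Of 26 Notch genes 7 (26.9%) rose and 7 (26.9%) fell, against 22.5% and 23.9% of genes over the median level. The receptor Notch2 had 257, 405 and 377 in the controls and 798, 1040.0 and 946 in the knockdown and rose by 1.40, while Notch4 fell by 1.09. Dner, a transmembrane protein of neurons with Notch-like repeats, had 468, 319.9 and 342 against 95.7, 77 and 126, and Dtx1, a ubiquitin ligase of the pathway, 603, 489 and 679 against 216, 129 and 168. Both fell, with changes of -1.77 and -1.71. Of 19 ephrins and Eph receptors 7 rose and 0 fell, or 1 without control array 1 (limma, 2 lower at an unadjusted p of 0.05). Efnb2, a transmembrane ephrin, had 29.1, 50.2 and 30.7 against 611, 1019 and 1446, with knockdown array 3 the highest, a change of 4.24 ± 0.27. The receptor Epha1 rose by 2.16, Epha7 by 1.53 and Epha2 by 1.26. Of 21 IGF genes 7 rose and 3 fell, or 1 with the array set as a block and without knockdown array 2 or 3 or control array 2 or 3. Igfbp3, which binds IGF in serum and matrix, had 29.99, 77.4 and 46.9 against 1642, 2857 and 2101. The docking proteins of the insulin receptor rose too: Irs1 had 116, 122 and 98.99 against 386, 422 and 524, and Irs2 102, 112 and 94.6 against 456, 559 and 575. No arrays overlapped, and the changes were 5.06 ± 0.26, 1.84 ± 0.14 and 2.19 ± 0.12.

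Genes of the immunity-related GTPases include some of the largest rises. Guanylate-binding proteins (Gbp) and Irgm proteins are GTPases that attack the vacuoles of intracellular pathogens and are induced by interferon gamma. Of 13 measured genes 7 rose and 0 fell (limma, 0 lower also at an unadjusted p of 0.05), with a median of 0.95. Gbp2b had 5.31, 89.5 and 49.5 in the controls and 1288, 2010.3 and 3324 in the knockdown, and Gbp3 12.01, 46.1 and 39.8 against 733, 981 and 1233. Irgm1 had 28.6, 90.3 and 54.02 against 1072, 1766 and 1619.8. Control array 1 was the lowest control in each of these genes, and every knockdown array was far above every control. The changes were 5.29 ± 0.51, 4.41 ± 0.29 and 4.41 ± 0.29 (SE; limma, adjusted p = 8.56e-05, 1.40e-05 and 1.40e-05), and without control array 1 that of Gbp2b was 4.64. Gbp2 rose by 4.66, Gbp7 by 2.38 and Irgm2 by 1.17. The Gbp genes are close copies of each other, and the probe set of Gbp2 is of a kind that can detect several transcripts, so their signals may not be fully separate. Summed over the 13 genes, intensities were 465, 731 and 510 in the controls and 5306, 7793 and 9410 in the knockdown. The sum follows the brightest genes: the list median, against the control mean, was 1.11, 1.36 and 0.40 in knockdown arrays 1, 2 and 3 on the log2 scale, and so lowest in the array with the highest sum.

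Binding letters for interferon factors are common in these promoters. Of 9 RefSeq windows of 8 GTPase genes, 7 (77.8%) held the IRF half-site pair, that is GAAA, 2 bases of any kind and GAAA, against 3.44% of all windows, 3.80% of those of all genes that rose and 2.15% of those of all genes that fell. The 4 windows below belong to the strongest risers and show the pair or its reverse complement in capitals.
Gbp2b (chr3:142594688-142594747, + strand): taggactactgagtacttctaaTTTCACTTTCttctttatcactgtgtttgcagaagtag
Gbp2 (chr3:142620582-142620641, + strand): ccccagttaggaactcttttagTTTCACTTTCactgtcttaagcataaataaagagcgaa
Gbp3 (chr3:142559977-142560036, + strand): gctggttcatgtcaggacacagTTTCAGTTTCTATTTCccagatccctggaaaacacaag
Irgm1 (chr11:48871421-48871480, - strand): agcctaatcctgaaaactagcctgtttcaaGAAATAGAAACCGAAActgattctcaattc

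Antigen presentation rose with the GTPases. MHC class I molecules show peptides that the immunoproteasome cuts, Tap1 and Tap2 import and Erap1 trims. Of 15 genes of this route 14 rose and 0 fell (limma, 0 lower also at an unadjusted p of 0.05), with a median of 0.76. Psmb8, a catalytic subunit of the immunoproteasome, had 10.2, 25.2 and 8.09 in the controls and 222, 376 and 389 in the knockdown. Erap1 had 21.2, 34.96 and 25.5 against 320.2, 575 and 357, and the peptide editor Tapbp (tapasin) 323, 430.1 and 291 against 1602, 2327 and 1616. The light chain B2m had 434, 621 and 543 against 1211, 1465 and 1347. The groups were apart in all 4 genes, with changes of 3.50 ± 0.25, 3.29 ± 0.21, 2.35 ± 0.17 and 1.32 ± 0.13, and Psmb10 and Tap1 rose by 1.33 and 1.27. The wider interferon response moved in both directions. Of 33 genes 10 (30.3%) rose and 9 (27.3%) fell (median 0.05), against 22.5% and 23.9% of genes over the median level. Irf1, the factor that interferon gamma induces first, had 672, 973 and 770.5 against 2274, 2899.5 and 2062, and the chemokine Cxcl10 6.35, 17.5 and 11.1 against 184, 173 and 471. Both rose, by 1.57 ± 0.15 and 3.27 ± 0.32. The antiviral sensor genes Ifih1 (MDA5) and Oasl2 rose by 1.73 and 2.31. In contrast the synthetase gene Oas1a had 490.3, 448 and 509 against 189, 162 and 179, and the membrane protein gene Ifitm2 4734, 4578 and 5289 against 2749.7, 2475 and 2770.3. These fell, with changes of -1.37 and -0.86 and arrays of a group close together.

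**Figure D3:**
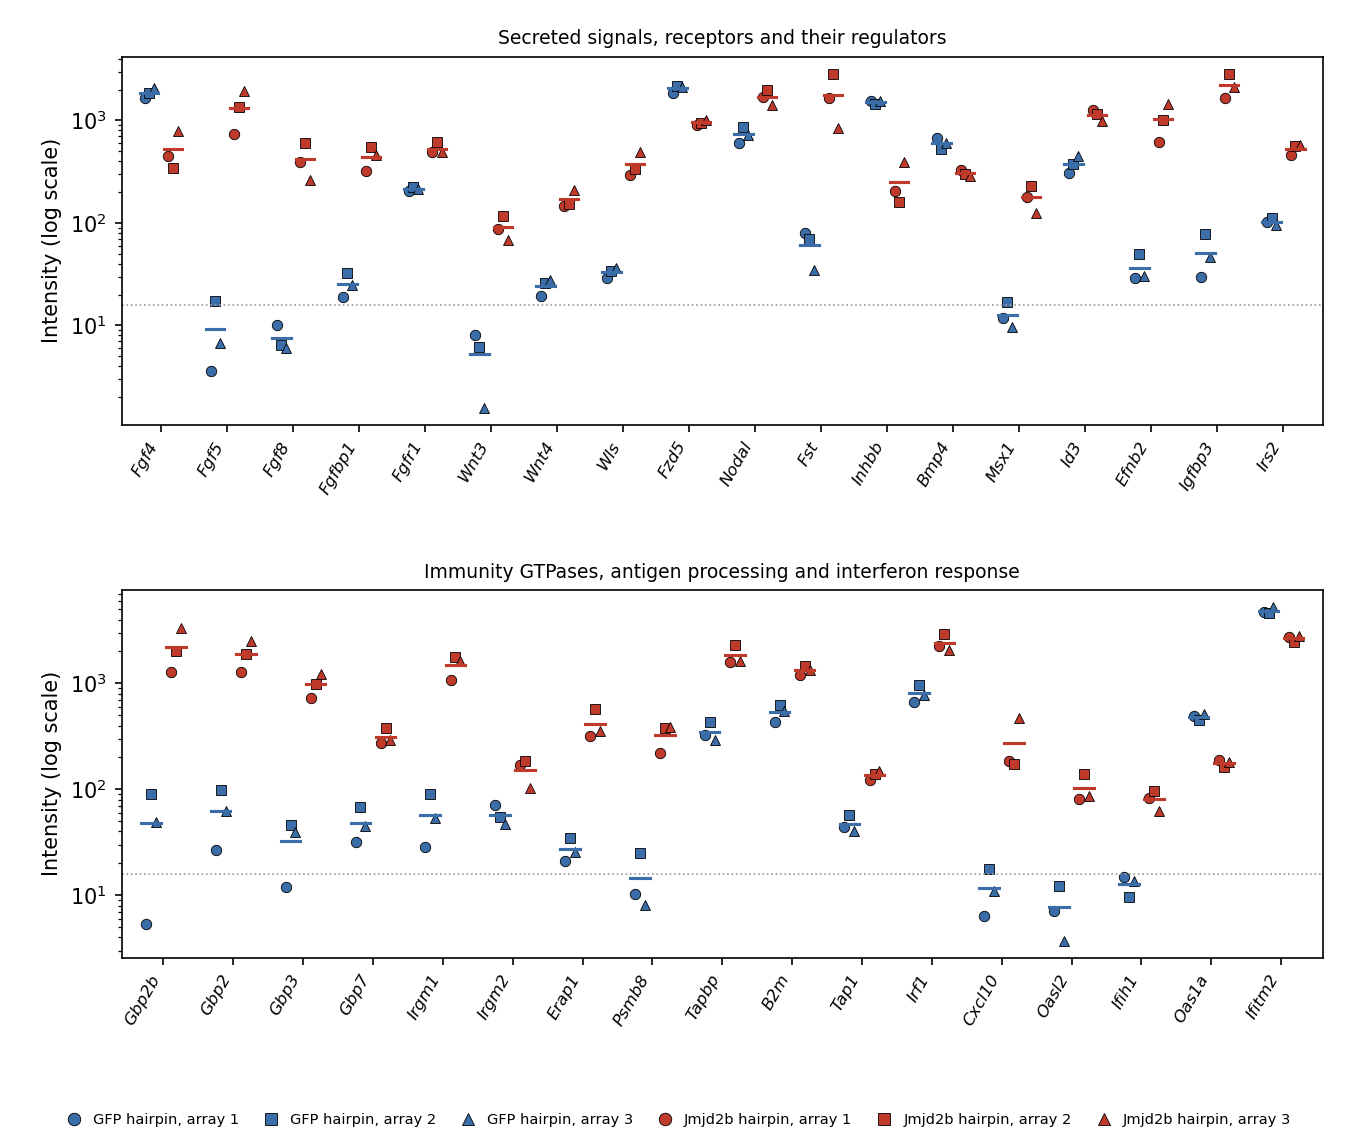
Intensity (log axis) in each of the 6 arrays for signalling genes (top) and for genes of immunity (bottom); circles, squares and triangles are arrays 1, 2 and 3, blue the GFP hairpin and red the Jmjd2b hairpin, lines are group means and the dotted line is the pseudocount of 16. Fgf5 and Gbp2b show the widest gaps (5.67 and 5.29 on the log2 scale), while Fgf4, Fzd5, Inhbb, Bmp4, Oas1a and Ifitm2 fall.

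Contractile and actin genes rose, most of all in knockdown array 3. Most of these genes encode parts of smooth muscle and stress fibres, and many are read by serum response factor (Srf). The list also holds Srf itself and the regulators Mrtfa, Mrtfb and Myocd. Of 30 genes 20 rose and 2 fell (median 0.84). Tagln (transgelin), an actin-binding protein of smooth muscle, had 46.9, 135 and 129 in the controls and 2199, 1994 and 8213 in the knockdown. Myl9, a regulatory light chain of myosin, had 10.8, 26.5 and 25.4 against 592, 603 and 2337, and the cardiac actin Actc1 21.2, 15.03 and 48.9 against 567, 211 and 1546. Knockdown array 3 was several times above the other two in each, yet no knockdown array overlapped a control. The changes were 4.90 ± 0.50, 4.73 ± 0.45 and 3.81 ± 0.56 (SE; limma, adjusted p = 0.000114, 7.65e-05 and 0.00087). Without knockdown array 3 they were 4.25, 4.09 and 3.11, and that of Actc1 was 4.50 without knockdown array 2. Actin genes are close copies of each other, so the signals of Acta1, Acta2 and Actc1 in this list may not be fully separate. Tropomyosin and caldesmon genes rose more evenly. Tpm4 had 860.3, 804 and 786 against 2224, 2356 and 2829.5, Cald1 892, 757 and 787 against 2569, 2528 and 3479, and Tpm1 231, 354 and 348 against 1977, 2278 and 3574. They changed by 1.57 ± 0.10, 1.78 ± 0.13 and 2.98 ± 0.22. The list median was 0.78, 0.63 and 1.13 in knockdown arrays 1, 2 and 3. Without knockdown array 3 the list counts were 20 rises and 2 falls and the median 0.69. Knockdown array 3 is the one array of the 6 whose array set holds no other array of the comparison, only the Jmjd2c arrays, and the part of this in the result was not tested.

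The CArG box, the Srf site, was in 8 of 32 windows of the contractile list (25%) and in 1.63% of all windows, 2.06% of those of all genes that rose and 1.26% of those of all genes that fell. The list was put together as Srf-type genes, so its share follows in part from that choice. The box is shown in capitals for Myl9 and Actc1, whose transcripts rose strongly, and for vinculin (Vcl) and Filip1l, which were chosen for their box after the values were seen and rose by 1.01 and 0.79.
Myl9 (chr2:156775281-156775340, + strand): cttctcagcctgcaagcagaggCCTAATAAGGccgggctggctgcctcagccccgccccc
Actc1 (chr2:114052885-114052944, - strand): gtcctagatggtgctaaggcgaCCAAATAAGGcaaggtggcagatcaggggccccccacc
Vcl (chr14:20929149-20929208, + strand): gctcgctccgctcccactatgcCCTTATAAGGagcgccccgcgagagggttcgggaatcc
Filip1l (chr16:57549158-57549217, + strand): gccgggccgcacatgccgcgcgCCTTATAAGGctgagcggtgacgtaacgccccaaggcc

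Genes of the YAP and TEAD pathway, which responds to cell shape and tension, more often rose than fell. Of 21 pathway members and target genes, counted together, 13 rose and 1 fell (median 0.61). Ccn1 (Cyr61) had 168, 196 and 158 in the controls and 914, 1125 and 1063 in the knockdown, and Ccn2 (Ctgf), its relative, 194, 479 and 342 against 2559, 3496 and 4458. Both encode matrix proteins that are standard targets of YAP. Amot, an angiomotin that holds YAP at junctions, had 107, 147 and 109.9 against 934, 1538 and 909.9. The arrays did not overlap, and the changes were 2.47 ± 0.12, 3.36 ± 0.28 and 3.03 ± 0.20. The TEAD cofactor Vgll3 rose by 3.12, Amotl2 by 1.60 and Ajuba by 1.45.

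Filament, junction and matrix genes had strong risers and some falls. Of 23 intermediate filament genes 6 (26.1%) rose and 7 (30.4%) fell, against 22.5% and 23.9% of genes over the median level. The falls numbered 3 or 4 without knockdown array 1 or 2 or control array 2 or 3. The neurofilament Nefl had 504, 523 and 372 in the controls and 3404, 4225 and 4569 in the knockdown, the neural progenitor filament Nes 45.95, 48.8 and 54.8 against 295, 388 and 722, and the epithelial keratin Krt8 479, 479.7 and 356 against 2122, 2355 and 3607. All 3 genes rose, by 3.09 ± 0.14, 2.79 ± 0.26 and 2.55 ± 0.19, whereas desmin (Des), the filament of muscle, fell by 0.83. Of 26 cadherin, tight junction and epithelial splicing genes 14 rose and 1 fell, or 2 without knockdown array 3 and 3 without control array 1 (median 0.48). N-cadherin (Cdh2) had 43.7, 63.5 and 47.2 against 748, 1002 and 798, the claudin Cldn6 189, 423 and 288 against 715, 1237 and 2007, and Tjp3, a scaffold of tight junctions, 244, 272 and 361 against 47.7, 53.9 and 101. The first 2 rose by 3.68 and 2.03 and Tjp3 fell by 1.92. Grhl2, a factor of epithelia, rose by 1.71, a call lost with the mean of its probe sets (adjusted p = 0.131). Of 28 integrin and focal adhesion genes 13 rose and 4 fell. Zyxin (Zyx) had 77.7, 98.5 and 86.7 against 542, 603 and 926, Ilk, the kinase-like partner of integrins, 214, 208 and 193 against 478, 555 and 468, and caveolin (Cav1) 32.8, 17.4 and 26.7 against 136, 127 and 134. They rose by 2.73, 1.22 and 1.85. Itgb8 rose by 1.89, and Itgb7, the beta chain of gut-homing lymphocytes, fell by 1.28. Of 36 matrix genes 13 rose and 4 fell, or 2 without knockdown array 2 or control array 3. Thrombospondin (Thbs1) had 13.4, 21.2 and 19.1 against 241, 341 and 514, the fibulin Efemp1 8.77, 20.3 and 13.2 against 388, 541 and 765, and Sparc 2213, 2488 and 2236 against 3871, 4120.0 and 4654. Nidogen (Nid1), a linker of basement membranes, fell from 1884, 2168 and 2240.4 to 745, 684 and 916. Its call was lost with the mean of its probe sets (adjusted p = 0.096), and another of them was called the opposite way. Of 17 genes of epithelial-mesenchymal transition 5 rose and 1 fell, a call lost without knockdown array 2 or control array 3. Twist1 had 20.3, 13.3 and 10.98 against 84.7, 122 and 79.5, a rise of 1.84.

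Genes of the integrated stress response fell. Atf4 and Ddit3 (CHOP) are the factors that cells switch on when amino acids run short or proteins misfold. Of 20 genes 11 fell and 0 rose (limma, 1 higher at an unadjusted p of 0.05), with a median of -0.45. Nupr1, a small stress-induced chromatin protein with the largest fall of all genes, had 1087, 860.3 and 1248 in the controls and 37.9, 34.5 and 102 in the knockdown. Ddit3 had 713, 863 and 1085 against 104, 96.2 and 292, the glutathione-cleaving Chac1 1135, 766 and 862 against 226, 178 and 341, and the pseudokinase Trib3 1264, 1171 and 1289.8 against 484, 355 and 573. Knockdown array 3 kept the most of all 4 transcripts but stayed below every control. Their changes were -3.97 ± 0.29, -2.47 ± 0.33, -1.85 ± 0.21 and -1.39 ± 0.15 (SE; limma, adjusted p = 1.94e-05, 0.00052, 0.000219 and 0.000152). Atf4 itself fell by 0.45. Of 41 genes of amino acid synthesis, transport and tRNA charging 22 fell and 5 rose, or 3 without control array 3. Asparagine synthetase (Asns) had 8048, 7626 and 8225 against 4606, 3976 and 4805, Psph, of serine synthesis, 2679, 2672 and 2932 against 1545, 1383 and 1553, and Aldh18a1, of proline synthesis, 1549, 1606 and 1805 against 875, 785 and 833. Each gene fell with little spread within a group, and the changes were -0.84, -0.88 and -0.98. The transaminase Gpt2 fell by 1.38, and the transporter Slc7a7 rose by 1.36.

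The core of the amino acid response element, TGATGNAA, was in 7 of 24 windows of the stress list (29.2%), in 11 of 36 of the amino acid list (30.6%) and in 3.97% of all windows, 1.81% of those of all genes that rose and 2.95% of those of all genes that fell. It is shown in capitals, on either strand, for Nupr1, Chac1 and the transcription factor gene Jdp2, which fell by 1.71.
Nupr1 (chr7:126625543-126625602, - strand): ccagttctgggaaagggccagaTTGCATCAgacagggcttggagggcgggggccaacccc
Chac1 (chr2:119351027-119351086, + strand): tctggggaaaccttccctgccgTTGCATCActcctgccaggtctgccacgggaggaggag
Jdp2 (chr12:85599356-85599415, + strand): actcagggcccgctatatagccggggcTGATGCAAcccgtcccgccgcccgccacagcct

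Chaperones of the endoplasmic reticulum mostly rose. Of 26 genes 15 rose and 3 fell (median 0.40); the rises numbered 6 without knockdown array 2 and 8 with the array set as a block, and the falls 5 without control array 1. Calreticulin (Calr) had 2035, 2636 and 2369.9 in the controls and 3460.4, 3897 and 3924 in the knockdown, and the disulfide isomerase Pdia3 1913, 2630.3 and 2304 against 3554, 4127 and 3876. Both serve MHC class I assembly as well and rose by 0.68 and 0.76. Kdelr3, a receptor that returns proteins to the endoplasmic reticulum, had 1231, 1003 and 1312 against 212, 140.4 and 141, and fell by 2.75 with groups far apart.

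Hypoxia-inducible and glycolytic genes fell. In low oxygen HIF factors switch on vessel growth, glucose use and the prolyl hydroxylases that in turn mark HIF for destruction. Of 29 hypoxia-inducible genes outside glycolysis 17 fell and 3 rose, with a median of -0.60. Egln3, such a prolyl hydroxylase, had 1109, 1256 and 1443 in the controls and 515, 392 and 457 in the knockdown. Bnip3, a mitophagy receptor, had 6196, 6023 and 7886 against 2783, 2009.6 and 2048, and Mxi1, an antagonist of Myc, 1066, 949 and 1230.3 against 469, 377 and 309. All knockdown arrays lay far below the lowest control in Egln3, Bnip3 and Mxi1, with changes of -1.45 ± 0.13, -1.55 ± 0.14 and -1.46 ± 0.15. Of 33 genes of glycolysis, lactate and glycogen 18 fell and 0 rose (limma, 0 higher also at an unadjusted p of 0.05), with a median of -0.27. The phosphofructokinase Pfkp had 3051, 3330.1 and 4199 against 1001, 726 and 947, and Hk2, a hexokinase of proliferating cells, 3481, 3804 and 3500.1 against 2279, 2302 and 2279. The glycogen phosphorylase Pygl had 445, 256 and 458 against 40.3, 30.4 and 52.6. All 3 fell, with changes of -1.97, -0.65 and -2.79. The phosphoglucomutase Pgm1 fell by 1.38. Of 55 subunits of the respiratory chain and ATP synthase 14 (25.5%) fell, all by small amounts, and 2 (3.64%) rose (median -0.08). A group mean lay over the median level in all 55, and of genes over it 23.9% fell and 22.5% rose. The share of falls was thus near that of bright genes. The falls numbered 8 without knockdown array 2 or control array 3 and 3 in eBayes without a trend, and the rises 1 without knockdown array 1 or 2 or control array 2 or 3. Sdhb and Sdhc, subunits of succinate dehydrogenase, changed by -0.47 and -0.52, while Atp5g1, a ring subunit of ATP synthase, rose from 1264, 1473 and 1362 to 3450.4, 3528 and 3563. Of 42 measured cytosolic ribosomal protein genes 2 rose and 1 fell, or 2 without control array 1 (median 0.02).

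The HIF core ACGTG is short and was in 19.6% of all windows, 25.04% of those of all genes that rose and 26.2% of those of all genes that fell. It was in 17 of 29 windows of the hypoxia list (58.6%) and in 24 of 45 of the glycolysis list (53.3%). Pfkp and Ndrg1 of these lists were looked up as well but gave no stretch to print. The windows of Egln3, Bnip3 and the ankyrin repeat gene Ankrd37, which fell by 1.71, show it in capitals on either strand.
Egln3 (chr12:54204065-54204124, - strand): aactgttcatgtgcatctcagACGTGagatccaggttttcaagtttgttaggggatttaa
Bnip3 (chr7:138909577-138909636, - strand): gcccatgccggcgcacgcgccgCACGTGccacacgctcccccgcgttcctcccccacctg
Ankrd37 (chr8:46000041-46000100, - strand): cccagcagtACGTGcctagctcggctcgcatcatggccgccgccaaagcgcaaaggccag

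**Figure D4:**
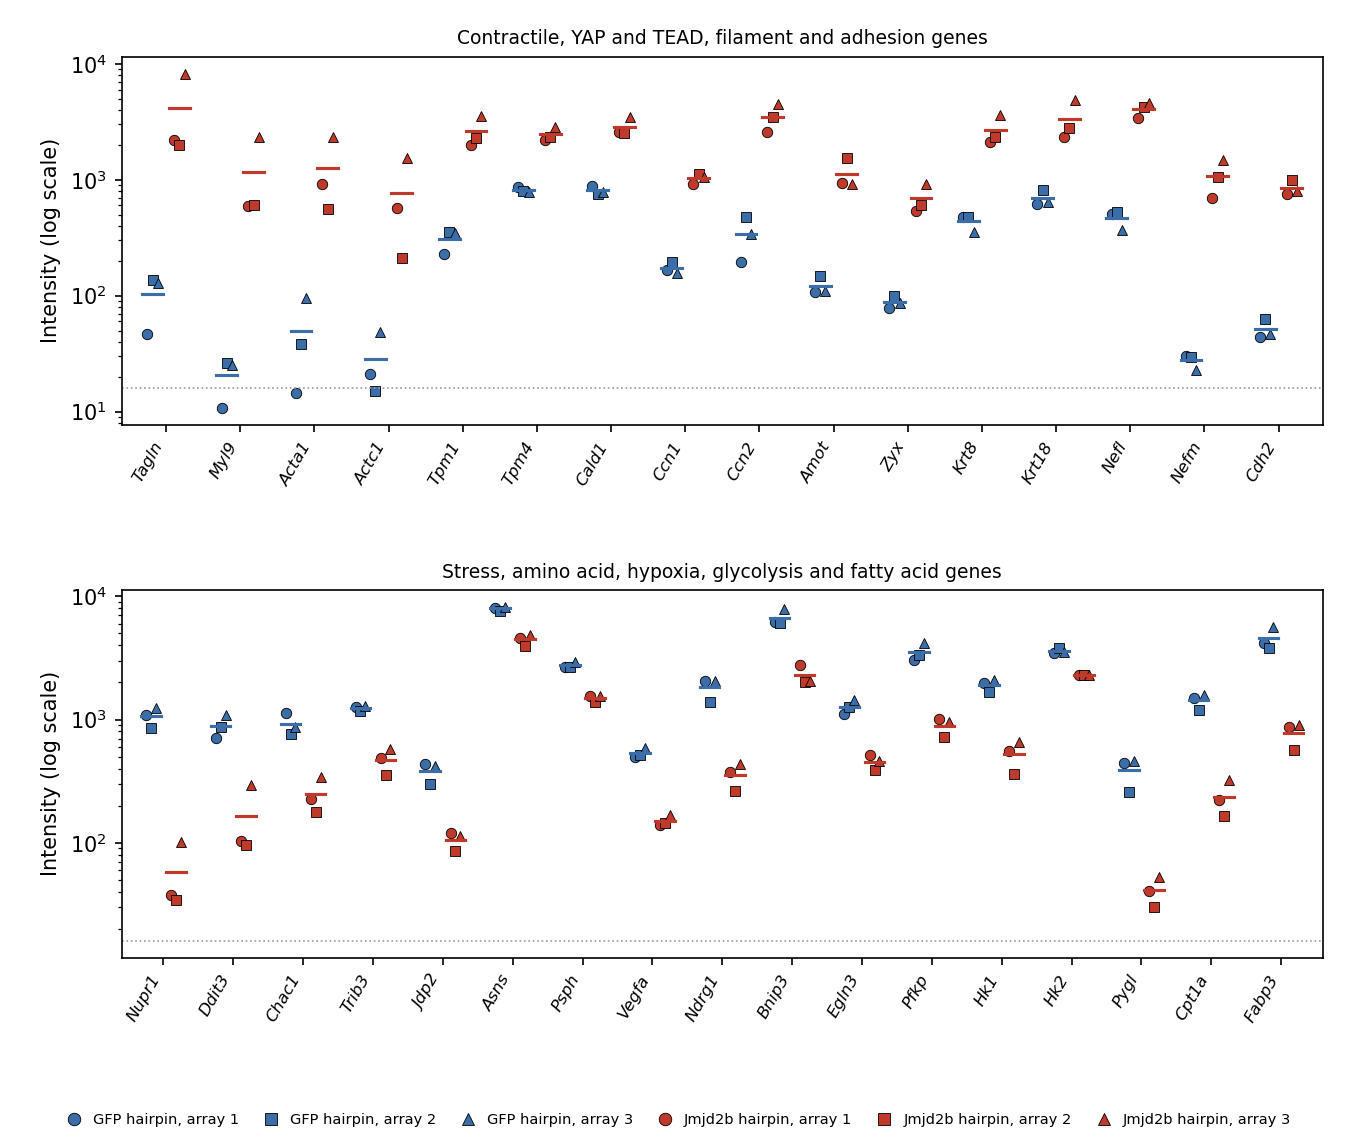
Intensity (log axis) in each of the 6 arrays for contractile, YAP and TEAD, filament and adhesion genes (top) and for stress, amino acid, hypoxia, glycolysis and fatty acid genes (bottom); circles, squares and triangles are arrays 1, 2 and 3, blue the GFP hairpin and red the Jmjd2b hairpin, lines are group means and the dotted line is the pseudocount of 16. All genes at the top rise and all genes at the bottom fall, and knockdown array 3 (red triangles) is highest for Tagln, Myl9, Acta1 and Actc1.

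Lipid, lysosome and metal genes were divided. Among the 30 largest falls were 2 genes of fatty acid use. Cpt1a, the gate of mitochondrial fatty acid oxidation, had 1508, 1192 and 1594 in the controls and 224, 165 and 321 in the knockdown. The binding protein Fabp3 had 4202, 3814 and 5645 against 864, 569.6 and 899.9. They changed by -2.56 and -2.53 without overlap. Fabp3 has 2 probe sets, and the other one was not called. Of 28 genes of cholesterol and fatty acid synthesis 8 rose and 2 fell; the rises numbered 4 without knockdown array 1 or 2 and 5 without control array 1 or 3, and the falls 4 without control array 1 and 1 without control array 3. Fatty acid synthase (Fasn) rose by 0.70, and Acss2, which makes acetyl-CoA from acetate, fell by 1.27. Of 35 lysosome and autophagy genes 16 fell and 4 rose, or 2 without knockdown array 2 or control array 1 or 3. Ulk1, the kinase that starts autophagy, had 1501, 1360.1 and 1519 against 755, 665 and 800.3, and Tfeb, a master factor of lysosome genes, 350.1, 323 and 430.2 against 221, 164 and 177. Both fell, with changes of -0.97 and -0.92. Of 28 genes of metal transport and storage 9 (32.1%) rose and 7 (25%) fell, against 22.5% and 23.9% of genes over the median level. Ferroportin (Slc40a1), which exports iron, had 52.6, 84.8 and 70.8 against 334, 464 and 617, and the zinc importer Slc39a8 13.8, 74.4 and 29.96 against 419.7, 859.9 and 965. Slc11a1 (Nramp1), a metal pump of phagosomes, had 400.1, 269 and 405 against 22.4, 21.4 and 28.5, and the metallothionein Mt2 7100.0, 6800.3 and 8432 against 3339.7, 2551 and 2962. The first 2 rose by 2.49 and 3.85, and the other 2 changed by -3.20 and -1.33. Slc39a8 has 2 probe sets as well, and its other one was not called.

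Cell cycle and survival genes changed member by member. Of 26 cyclins, kinases, inhibitors and E2F factors 8 (30.8%) rose and 10 (38.5%) fell, against 22.5% and 23.9% of genes over the median level. Cdk6 had 174, 262 and 212 in the controls and 813, 940.5 and 779 in the knockdown, and its partner Ccnd2 144, 273 and 223 against 622, 795 and 596. The inhibitor Cdkn1b (p27) had 1429.5, 1076 and 1579 against 472, 329.6 and 337, and E2f2 257, 231 and 268 against 83.95, 61.3 and 71.5. Cdk6 and Ccnd2 rose by 1.91 and 1.61, and Cdkn1b and E2f2 changed by -1.80 and -1.61, with no overlap of groups. Of 22 p53 target genes 8 rose and 2 fell. Perp, a junction protein, had 286, 341 and 293 against 1161, 1514 and 1183, and Phlda3, an inhibitor of Akt, 1195, 1072 and 1026 against 2136, 2276 and 2195. Cdkn1a (p21), the best known p53 target, was looked up after its values were seen and had a log2 change of 0.18 (adjusted p = 0.177). Of 16 genes of the BCL2 family 6 (37.5%) rose and 5 (31.2%) fell, and both survival and death factors rose. Bcl2 had 41.2, 45.7 and 35.3 against 112, 155 and 129, Bcl2l1 (Bcl-xL) 295, 322 and 293 against 519, 618 and 577, and the pro-apoptotic Bcl2l11 (Bim) 311, 385 and 374 against 605, 634 and 935. They rose by 1.37, 0.88 and 0.97, and Bmf, which is pro-apoptotic too, fell by 1.69.

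Further families with a developmental role are given by count. Of 18 retinoic acid genes 4 (22.2%) rose and 3 (16.7%) fell, against 14.2% and 15.9% of all genes. Rdh10, which makes the precursor of retinoic acid, had 107, 138 and 97.4 in the controls and 420.0, 559 and 450.0 in the knockdown, and Stra8, a gene that retinoic acid induces at the entry into meiosis, 310.5, 200.3 and 215 against 34.2, 26.3 and 51.03. Rdh10 rose by 1.92 and Stra8 fell by 2.28. Of 35 semaphorin, netrin and Slit genes 9 rose and 3 fell, or 1 with all 8 arrays in the fit and without knockdown array 1 or 2 or control array 2. The netrin receptor Unc5b had 67.7, 106 and 74.2 against 486, 824 and 1002, and the guidance ligand Sema3e 73.6, 153 and 95.05 against 574, 839 and 976. They rose by 2.95 and 2.74, and Sema3c and Sema6a by 2.46 and 2.11. Of 33 genes of cyclic nucleotide signalling 5 (15.2%) rose and 5 (15.2%) fell, shares near those of all genes. The phosphodiesterase Pde8a had 837, 587 and 763 against 96.9, 60.6 and 141 and fell by 2.73. Of 15 genes of the Lin28 and let-7 axis 7 rose and 2 fell. Both falls lost their call without knockdown array 2 or control array 3, 1 fall was called without control array 1, and 4 with quantile scaling. Hmga2, a chromatin protein that let-7 represses, had 221, 250.1 and 275 against 889, 942 and 762, and Lin28a, which blocks let-7 maturation, 1757, 2081 and 1805 against 2766, 3473 and 4228. They rose by 1.73 and 0.87.

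**Figure D5:**
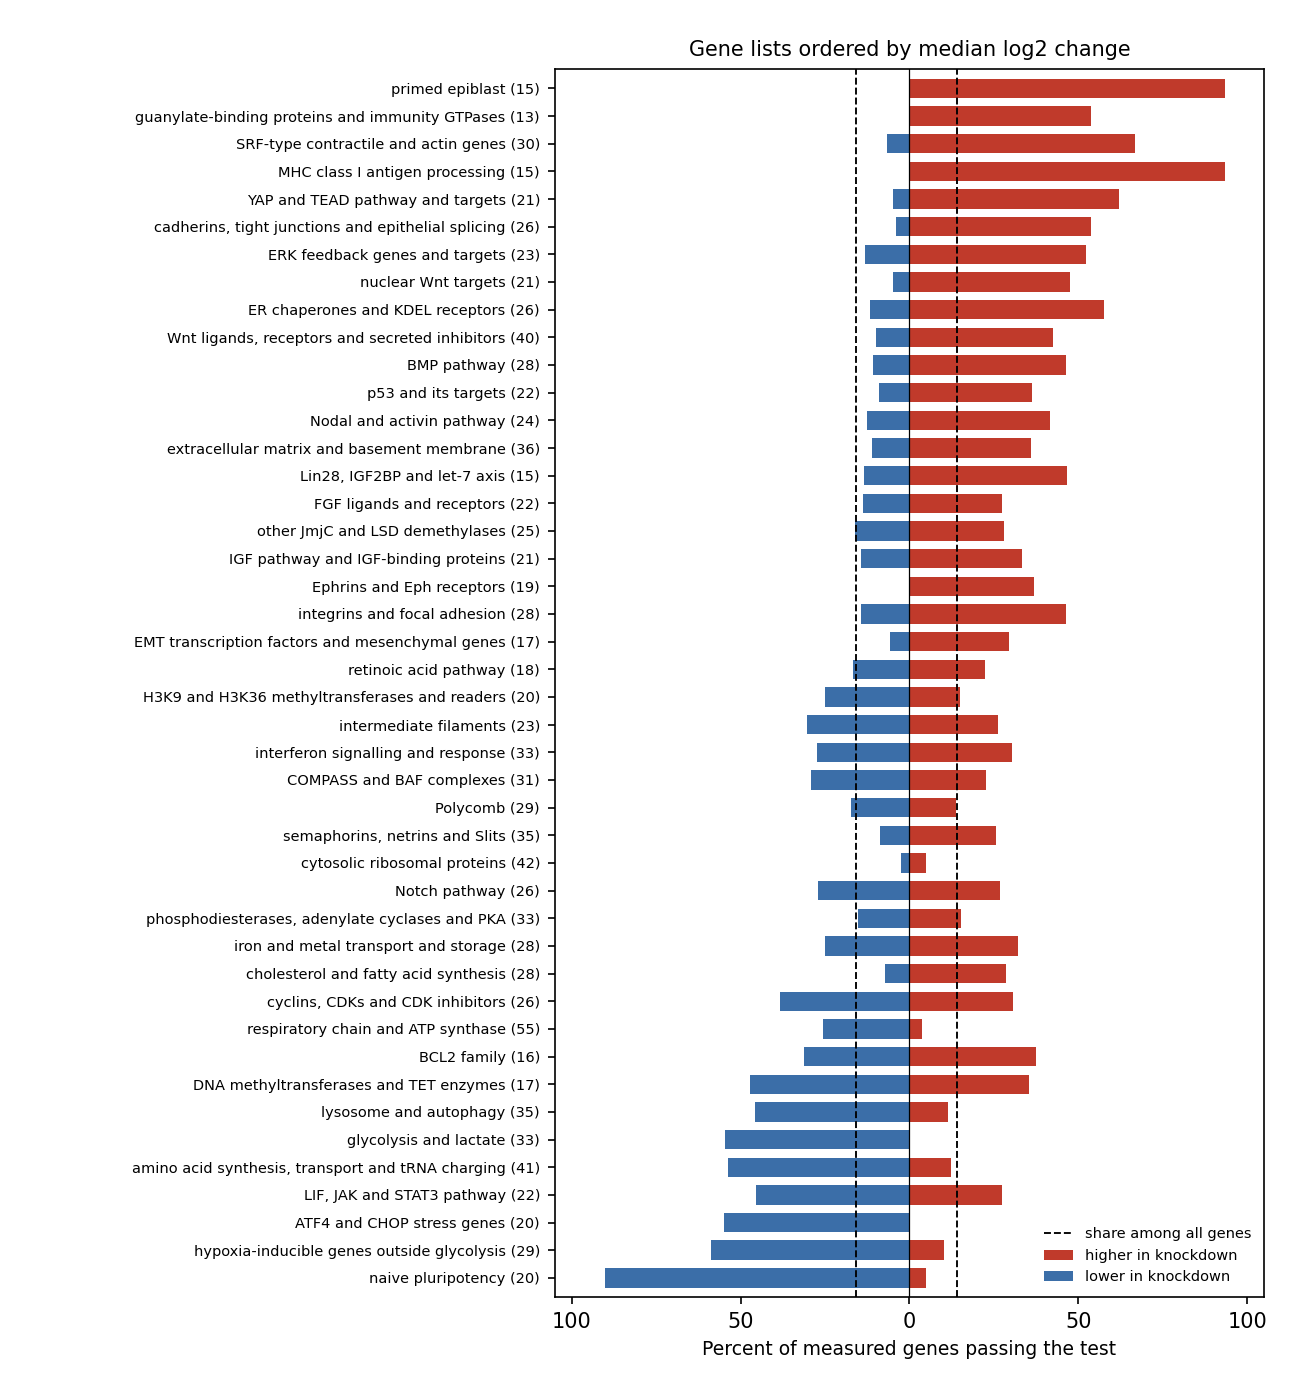
Percent of the measured genes of each list that passed the test, higher in the knockdown to the right in red and lower to the left in blue, for lists of at least 13 measured genes (number in brackets) ordered by median log2 change; dashed lines are the shares among all genes, 14.2% and 15.9%. Primed epiblast and antigen processing genes reach farthest to the right (14 of 15 and 14 of 15) and naive pluripotency genes farthest to the left (18 of 20), while ribosomal protein genes lie inside both lines.

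Median changes by chromosome were small. Over the genes above the median level the median log2 change of a chromosome lay between -0.07 on chromosome 9 and 0.06 on the X chromosome. On the X chromosome 29.8% of such genes rose and 19.4% fell, against 22.5% and 23.9% of all genes over the median level. On chromosome 1 the shares were 27.2% and 23.1%. Of 7 genes of X inactivation 1 (14.3%) rose, near the 14.2% of all genes, and 0 fell (limma, 0 lower also at an unadjusted p of 0.05). The riser Ftx, a noncoding RNA gene beside Xist, lost its call with the array type or the array set as a block (adjusted p = 0.0531 and 0.110) and without any 1 array other than control array 2 (adjusted p from 0.0626 to 0.124). Xist, the RNA that silences an X chromosome in female cells, had 58.1, 79.2 and 92.7 in the controls and 72.1, 59.99 and 106 in the knockdown, with overlapping groups. Of 6 Y-linked genes 0 rose and 2 fell, or 1 without control array 3 (limma, 0 higher also at an unadjusted p of 0.05). Uty, a demethylase of the JmjC class, fell by 0.41, with another probe set called the opposite way, and gave 0.13 with the mean of its probe sets. Eif2s3y, a translation factor, had 2240.0, 2464 and 2521 against 1702, 1762 and 1813, a change of -0.45 ± 0.07. Both Y-linked and ES cell transcripts were thus present in each array.

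Markers of other cell types are given list by list, with their summed intensities. Of 15 fibroblast markers, which would mark feeder cells, 4 rose and 3 fell, and their summed intensity was 4973 to 6097 in the controls and 5982 to 6690 in the knockdown. The collagen gene Col1a1 had 12.5, 17.7 and 7.34 against 47.4, 50.4 and 69.9 and rose. The surface markers Thy1, with 114, 106 and 123 against 40.9, 28.2 and 38.9, and Pdgfrb, with 390.1, 357 and 385 against 144, 138 and 130.1, fell. Of 11 trophoblast markers 3 rose and 4 fell, with a summed intensity of 3764 to 4328 in the controls and 3687 to 4601 in the knockdown. Beside Cdx2, Eomes had 235, 126 and 105 against 917, 1305 and 388, and Gata3 1.34, 8.47 and 3.97 against 47.8, 33.3 and 49.3. The placental gene Tpbpa had 8.01, 24.6 and 21.4 in the knockdown and Elf5 13.8, 24.9 and 18.4, both at the dim end and overlapping the controls. The falls included Krt7, Ascl2 and Esx1, and the median log2 change of the list was -0.24. These 3 calls were lost with the array type as a block (log2 changes -1.115, -0.854 and -0.478). The falls of this list numbered 1 without knockdown array 2 or control array 3 and 2 without knockdown array 1 or control array 1. Of 15 primitive endoderm markers 5 (33.3%) rose, or 3 with all 8 arrays in the fit, and 2 fell; of all genes 14.2% rose. Foxa2 had 16.1, 12.6 and 10.6 against 79.4, 119.9 and 78.5 and the laminin Lamb1 539.7, 1139 and 782 against 1871, 2319 and 2113, and both rose. The summed intensity of the primitive endoderm list was 1552 to 2220 in the controls and 3082 to 3619 in the knockdown. Lamb1 made up a large part of this sum, and the median log2 change of the list was -0.001. Of 14 neural markers 3 (21.4%) rose and 2 (14.3%) fell, against 14.2% and 15.9% of all genes. The sum was 6528 to 7935 in the controls and 6283 to 7136 in the knockdown. The falls were Tubb3 and Ncam1, and both calls were lost with all 8 arrays in the fit (adjusted p = 0.112 and 0.0598). The falls numbered 1 in eBayes without a trend and without knockdown array 2 or any 1 control array. Among the risers Map2 lost its call with all 8 arrays in the fit, with median or quantile scaling and with the mean of its probe sets. The Map2 call was also lost with the array type, array set or replicate number as a block. It was lost too without any 1 of knockdown arrays 2 and 3 and the 3 controls. Of 12 blood and endothelial markers 1 (8.33%) rose and 2 (16.7%) fell, and the sum was 499 to 566 and 423 to 467. The falls of this list numbered 1 without knockdown array 1 or control array 1 or 3. The defining genes Ptprc (CD45), Cd34 and Cdh5 had group means between 20.4 and 32.6 and did not pass the test. The part of other cell types in the results was not tested.

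Some of the 30 largest rises lie outside these lists. The sulfotransferase Hs6st2, which modifies heparan sulfate, had 7.95, 40.7 and 27.3 in the controls and 414, 794 and 1336 in the knockdown. Chst15, a sulfotransferase of chondroitin sulfate, had 8.02, 18.3 and 14.2 against 339, 618 and 605, and Vrtn (vertnin), a gene of vertebral number, 11.5, 16.8 and 17.7 against 348, 498 and 579. The 3 genes rose by 4.32 ± 0.40, 4.15 ± 0.23 and 3.95 ± 0.18, with groups far apart. Anxa3, an annexin, rose by 4.14, the secreted kinase gene Pkdcc by 3.81 and the scavenger receptor gene Colec12 by 3.79. Prickle1, a planar polarity gene, rose by 3.79, the adhesion receptor gene Adgrl2 by 3.72, the lysophosphatidic acid receptor gene Lpar4 by 3.59, the potassium channel gene Kcnj3 by 3.57 and Fndc3c1 by 3.56. Prickle1 has 3 probe sets, and neither of the others was called.

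The 30 largest falls include genes of muscle, metabolism and the germ line. Camk2n1, an inhibitor of calmodulin kinase II, had 836, 448 and 675 in the controls and 56.5, 29.1 and 99.5 in the knockdown. Lrrc31, a leucine-rich repeat gene, had 446, 279 and 455 against 23.6, 13.2 and 31.3, and the AMP deaminase Ampd3 607, 423 and 588 against 71.2, 37.8 and 82.3. The log2 changes were -3.17 ± 0.32, -3.40 ± 0.22 and -2.83 ± 0.22, and knockdown array 2 was the lowest in each. Trim63 (MuRF1), a ubiquitin ligase of muscle, had 683, 471 and 629 against 74.8, 65.8 and 141, and Khdc3, an oocyte protein gene, 1319, 1229 and 1284 against 186, 194 and 315. The protease inhibitor A2m had 1505, 1349 and 1928 against 314, 196 and 203. Their changes were -2.52, -2.42 and -2.68. Tgm2, a transglutaminase, fell by 2.71, and Mapt, the tau protein of axons, fell by 2.45. Tex14, a gene of germ cell bridges, fell by 2.53, and Amhr2, the receptor of anti-Mullerian hormone, fell by 2.47. The homeobox gene Vax2 and its neighbour Vax2os changed by -2.45 and -2.51; the 2 genes lie side by side on chromosome 6. Fam183b, Calml4, Sult6b1, Serpinb1a, Misp3, Smim22 and the adhesion gene Cadm4 had changes between -2.84 and -2.42. Camk2n1, Vax2os and Smim22 have 2 probe sets each, and the other one was not called.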

How the data were processed

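RNA of 8 mouse ES cell samples was hybridised as biotinylated cRNA to Affymetrix arrays, per the labels' protocols; the 3 arrays with a GFP hairpin and the 3 with a Jmjd2b hairpin were compared. The authors deposited a table of linear intensity values per probe set. The steps of background correction, summary and scaling are not given in the sources used here. Precision rests on the number of arrays. Of 45101 probe sets, 34945 have 1 gene symbol in the platform annotation, 932 several, 9160 none listed, and 64 are array controls; 34741 matched a RefSeq gene and 0 symbols were updated. log2(intensity + 16), computed from the deposited intensity values, was fitted with limma 3.58.1 (lmFit, eBayes with a trend) in R 4.3.3, without a block, and p-values were adjusted over all 34945 probe sets (Benjamini-Hochberg, 0.05). A gene takes the values of its brightest probe set over the 6 arrays. Python 3.11.15, pandas 2.3.3 and matplotlib 3.10.9 were used for lists, promoter windows and plots.

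Named genes are the KDM4 genes, the 30 largest rises and falls, up to 6 members per list by smallest p (any member of lists under 13 genes) and the cell type markers; others are named as chosen after their values were seen. The members and lists were chosen with earlier results of these data known. Alternatives were other pseudocounts (1 and 64), quantile and median scaling, brighter probe sets only, no probe sets of the x, s and a kind, other rules per gene, eBayes without trend, all 8 arrays, blocks for replicate, array type and array set, and leaving out each array. An array set holds arrays that share more identical values with each other than with the rest: control arrays 1 and 2 with knockdown array 2, control array 3 with knockdown array 1, and knockdown array 3 with the Jmjd2c arrays. The first of these sets rests on the values at 1 alone, and so repeats the array type. A promoter motif that was searched is not reported here.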

Additional observations from a re-analysis of the deposited data

How the results depend on the processing

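Leaving out each array in turn gave 6261 to 8906 probe sets that passed the test (3411 to 4598 higher, 2846 to 4308 lower) and 3806 to 5353 genes (1893 to 2540 higher, 1913 to 2813 lower); the lowest counts of falls came without control array 3. As alternatives added after seeing the data, the arrays with many values at 1 (2 controls, 1 knockdown) gave 638 probe sets (349 higher, 289 lower) and 467 genes (248 higher, 219 lower), and the others (1 control, 2 knockdown) 3189 probe sets (1678 higher, 1511 lower) and 2104 genes (1048 higher, 1056 lower). Both hold fewer samples, and the lone array is assumed to vary like the others. With a replicate block 9666 probe sets (5036 higher, 4630 lower) and 5743 genes passed. The labels state no pairing: deviations of same-numbered arrays correlated at 0.162, 0.0683 and 0.121 over probe sets and at 0.177, 0.112 and 0.116 over genes, and each array correlated best with its own number, a hint from the data and not from the design. Counts under the remaining alternatives lay within 1.5 times those reported, and 68.9% to 100% of the called genes were called the same way in each alternative outside the array types. Over 374 genes named by rule, 6943 values under alternatives kept direction and call in 6826, lost the call in 93, gained it in 23 and reversed in 1, the Y-linked Uty (0.13 with the mean of its probe sets against -0.41); the cause was not tested. Dim genes, near the pseudocount of 16, carry understated folds.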

Other observations

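Other members of the lists add detail to the families above. The neurofilament Nefm had 30.3, 29.8 and 22.99 in the controls and 700.2, 1065 and 1475 in the knockdown and rose by 4.59, against 3.09 for its partner Nefl. Among collagens of the basement membrane, Col4a1 had 173, 148 and 135 against 320.3, 355 and 244, and Col4a2 131, 126 and 92.02 against 245, 269 and 144. Their changes were 0.93 ± 0.15 and 0.80 ± 0.22 (SE; limma), and neither passed with all 8 arrays in the fit (adjusted p = 0.0686 and 0.241). The Col4a2 call was also lost without knockdown array 1 or 2 or control array 3 (adjusted p = 0.0778, 0.0877 and 0.0918). The membrane protease Mmp14 rose by 1.24 and the laminin Lama5 by 0.98, while fibronectin (Fn1), a matrix glycoprotein, fell by 0.58, a call lost without knockdown array 2 or control array 3 (adjusted p = 0.0577 and 0.0653).

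Growth factor and RNA-binding genes of early development changed as well. The imprinted growth factor Igf2 had 52.6, 91.7 and 58.5 in the controls and 152, 170.2 and 283 in the knockdown and rose by 1.36. The RNA-binding proteins Igf2bp1 and Igf2bp3, which bind its transcript, rose by 0.60 and 0.58. The ephrins Efnb1 and Efna4 rose by 1.55 and 0.93, and the Notch-related Hes6 by 1.06. The cyclin gene Ccnd1 rose by 0.80, and Socs2, a relative of Socs3 that moved the other way, by 0.86.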
